A study of Mus musculus with 6 samples.

Results

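Molecular chaperones are proteins that hold other proteins while they fold, and the 42 genes described here encode the main ones of the cytosol, the endoplasmic reticulum (ER) and the mitochondria, together with the ER factors that dispose of misfolded proteins or sense them. They were taken as a list of symbols, and a member is a row of the deposited table whose gene symbol equals one of them. All 42 were found among the 24421 rows. They comprise 13 cytosolic chaperones and co-chaperones, the cytosolic regulator Hsf1, 3 mitochondrial chaperones, 15 ER chaperones and folding enzymes, 4 genes of ER-associated degradation, and 6 sensors and transcription factors of the unfolded protein response.

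Chaperones of the Hsp70 family bind short greasy stretches of unfolded protein in a cycle driven by ATP. J proteins bring them their clients and start ATP hydrolysis, nucleotide exchange factors end the cycle, and Hsp90 chaperones take over many clients at a later stage of folding. When unfolded protein builds up in the cytosol, heat shock factor 1 (Hsf1) binds heat shock elements and raises transcription of cytosolic and some mitochondrial chaperones. When it builds up in the ER, the sensors Ern1 (IRE1), Eif2ak3 (PERK) and Atf6 act through the factors Xbp1, Atf4 and the cleaved form of Atf6, which bind other elements. Hepatocytes secrete most plasma proteins, so the folding machinery of the ER is heavily used in the liver.

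Hepatic mRNA was sequenced (RNA-seq) in 6 C57BL/6 mice (the J substrain in the study's text) aged 21 weeks according to the labels, slightly older than the study's text gives, 3 of them wild-type (WT) and 3 heterozygous for a null allele of the gene for PAI-1 (Pai-1+/-). The mice were male littermates fed a standard chow diet ad libitum. The labels describe RNA from flash-frozen liver, whereas the study's methods put the portion for RNA into a stabilizing solution. The allele is carried in all tissues, and the heterozygotes keep an intact copy of the gene. The study compared the genotypes to learn how PAI-1 affects hepatic gene expression. No comparison of the genotypes is given here, because the per-animal count columns carry animal numbers that match no sample label, and the fold changes and p-values deposited beside them are the result of the study itself. Every level below therefore comes from the authors' mean normalized count over all 6 libraries, with both genotypes pooled. The mean carries no depth per library and no spread between mice, and the unmatched columns were not used for either, so no level has an error and the order of neighbouring genes was not tested.

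The level of a gene is its mean normalized count per 1000000 of the summed means of all rows, per kilobase of its merged exons. The means summed to 30045982, and the 10 highest rows made up 16.8% of that sum. Among 12872 genes with a mean above 10 and 1 annotated gene of that name, the median level was 3.13, the 90th percentile was 29.7 and the 99th percentile was 358. Markers of the labelled tissue were far above those of other liver cells. The 5 hepatocyte markers had levels from 819 (Cps1) to 30633 (Alb), the 5 Kupffer cell markers from 3.36 to 38.8, the 4 endothelial markers from 2.48 to 12.4, the 4 stellate cell markers from 1.20 to 23.7, and the 2 lymphocyte markers did not exceed 0.520. In bulk tissue the mRNA of a member can come from several cell types, and fewer cells of a type cannot be told apart from less RNA per cell.

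The promoter sequences of cytosolic and ER members held different motifs, and are shown first. RefSeq promoter windows (assembly GRCm38.p6, 250 bases before to 50 bases after an annotated start) were given for 34 of the 42 members. The 8 without one were Hsp90ab1, Hsp90aa1, Hspa8, Hyou1, Manf, Atf6, Hsf1 and Hspa9. A heat shock element was taken as GAANNTTC or TTCNNGAA, which are inverted pairs of the GAA unit that Hsf1 contacts. The following stretches hold such matches in capitals, are written 5′ to 3′ on the strand of the gene, and were chosen because they belong to the cytosolic and mitochondrial members with a match before the start. The first pair belongs to the stress-inducible Hsp70 genes, at chr17:34972238-34972275 and chr17:34959320-34959357 on the minus strand. Hspb1 encodes a small heat shock protein and its stretch lies at chr5:135887787-135887844 on the plus strand. The Dnaja1 stretch is at chr4:40722333-40722362 on the plus strand and the Hsph1 stretch at chr5:149636351-149636380 on the minus strand. Hspd1 and Hspe1 lie head to head, and the bases shown for both are chr1:55088053-55088082, read on the minus strand for Hspd1 and on the plus strand for Hspe1.
Hspa1a: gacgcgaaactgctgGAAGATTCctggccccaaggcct
Hspa1b: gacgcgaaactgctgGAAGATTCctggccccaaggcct
Hspb1: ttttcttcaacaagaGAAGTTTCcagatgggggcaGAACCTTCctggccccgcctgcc
Dnaja1: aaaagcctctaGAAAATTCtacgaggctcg
Hsph1: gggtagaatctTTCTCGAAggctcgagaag
Hspd1: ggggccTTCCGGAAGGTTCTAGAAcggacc
Hspe1: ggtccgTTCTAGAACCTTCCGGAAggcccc

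The Hspa1a and Hspa1b stretches are letter for letter the same. Their whole windows matched at 296 of 300 positions, and the genes lie 9951 bases apart. Hspd1, which encodes the Hsp60 barrel, and Hspe1, which encodes its Hsp10 lid, share a run of 18 bases with 3 overlapping matches between starts that are 216 bases apart. RefSeq gives a second start for Hspd1, whose window holds no heat shock element and from which GENCODE exons of the 2 genes overlap by 112 bases on opposite strands. The Dnaja1, Hsph1 and Hspd1 stretches overlap an exon annotated by GENCODE M21 from another start. They are thus promoter to the RefSeq start and may be transcribed from the other. The Hspe1 stretch also overlaps an annotated exon, but not one of Hspe1, whose GENCODE gene begins after it, at chr1:55088132.

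The ER stress element was taken as CCAAT, any 9 bases, then CCACG, the layout bound by the factor NF-Y on its left side and by Atf6 on its right side. It is shown in capitals for every member that held it, because few promoters in the genome do. Where the element runs on the opposite strand, the capitals begin with CGTGG and end with ATTGG. The Hspa5 stretch is at chr2:34772020-34772048 on the plus strand, inside an exon that GENCODE annotates from an upstream start. The other 7 lie outside annotated exons. They are at chr10:86705518-86705671 for Hsp90b1, chr8:84847060-84847108 for Calr and chr11:50325785-50325833 for Canx, all on the minus strand, and at chr12:17266476-17266524 for Pdia6, chr14:118937812-118937860 for Dnajc3, chr15:88819505-88819553 for Creld2 and chr19:6046517-6046565 for Syvn1, all on the plus strand.
Hspa5: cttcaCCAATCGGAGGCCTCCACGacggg
Hsp90b1: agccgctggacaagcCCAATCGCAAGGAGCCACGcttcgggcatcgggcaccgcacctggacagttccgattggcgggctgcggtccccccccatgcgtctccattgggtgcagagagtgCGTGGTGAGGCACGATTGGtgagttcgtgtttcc
Calr: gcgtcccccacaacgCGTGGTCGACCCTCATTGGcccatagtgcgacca
Canx: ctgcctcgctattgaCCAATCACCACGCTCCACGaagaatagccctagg
Pdia6: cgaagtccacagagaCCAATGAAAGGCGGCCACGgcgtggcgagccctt
Dnajc3: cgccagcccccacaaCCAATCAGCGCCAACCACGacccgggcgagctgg
Creld2: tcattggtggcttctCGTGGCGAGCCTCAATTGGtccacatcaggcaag
Syvn1: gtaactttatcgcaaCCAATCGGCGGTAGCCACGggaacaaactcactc

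Counted over genes and on both strands, a heat shock element was present in 17.0% of all 27025 genes with a window. It was present in 6 of the 10 cytosolic members with a window (Chordc1, Dnaja1, Hspa1a, Hspa1b, Hspb1 and Hsph1), in both mitochondrial members with one, and in 0 of the 13 ER chaperones and folding enzymes and 0 of the 4 degradation genes. Among the sensors and factors it was present in Eif2ak3 alone, 1 of 5, at 213 bases before the start. The Hspa1a and Hspa1b stretches have the same letters, and the Hspd1 and Hspe1 matches are the same bases. In each of these pairs, 1 sequence is thus counted for 2 genes. Hsph1, besides the match printed above, held 2 more after its start. In Chordc1, which encodes an Hsp90 co-chaperone, the 5 matches all began between 4 bases before the start and 33 bases after it. The 4 cytosolic members whose windows lacked these letters were Hspa4, Hspa4l, Dnajb1 and Stip1, and their absence from a window of this length says nothing of elements elsewhere. The transcribed part of 35 of the 39 member windows was found in a GENCODE transcript of the gene. The exceptions were the windows of Hspa4, Stip1, Pdia4 and Dnajc3.

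The ER stress element was present in 37 of the 27025 genes, or 0.137%. Members made up 8 of those 37 genes (21.6%), and the same 8 were 23.5% of the members with a window. They were 7 of the 13 ER chaperones and folding enzymes and the degradation gene Syvn1, whereas 0 of 10 cytosolic and 0 of 2 mitochondrial members held it. The first bases of the 9 matches lay between 44 (Syvn1) and 212 (Hsp90b1) bases before the start. Hsp90b1 held 2 matches, in opposite directions. CCAAT, which is contained in the ER stress element and so is not a separate count, was present in all 13 ER chaperones and folding enzymes and all 4 degradation genes, in 6 of 10 cytosolic members and in 41.1% of all genes. The UPR element TGACGTGG was in 0 of the 34 members and 0.714% of all genes, and the ATF4 composite element TGATGNAA was in 1 member, Herpud1, and 4.51% of all genes. These are descriptions without a test: the members are well-known stress response genes, the motifs were defined on genes of this kind, and matching letters are not evidence of binding in these livers.

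**Figure D1:**
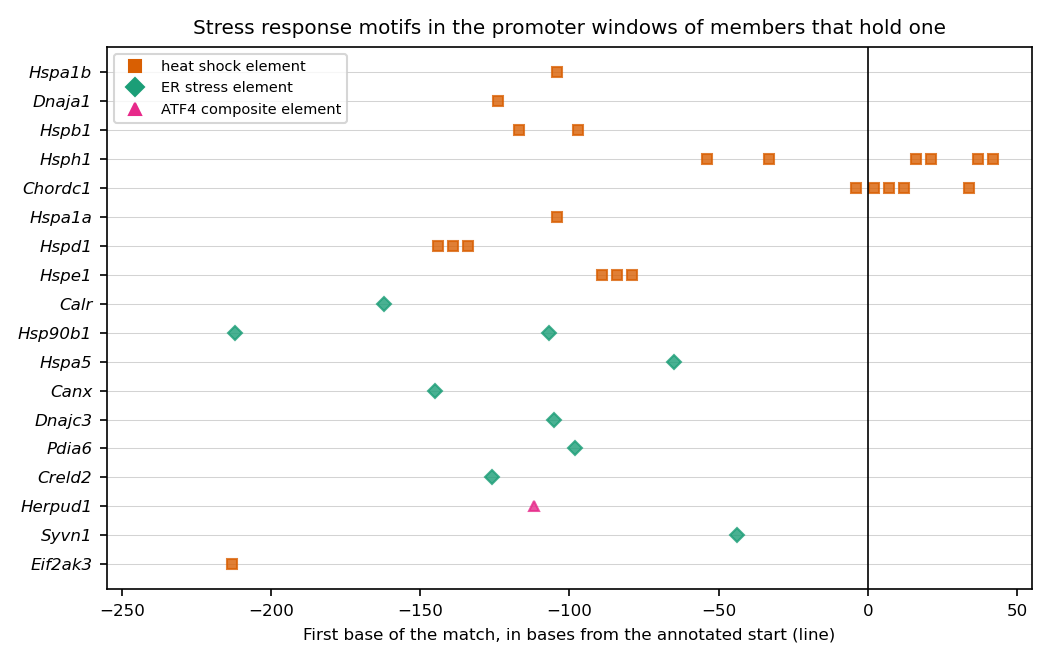
Position of each motif match (x axis, first base of the match in bases from the annotated start, negative before it) in the RefSeq promoter windows of the members that hold a heat shock, ER stress or ATF4 composite element (y axis, 1 gene per line, both windows of Hsph1 on 1 line). Squares lie on the lines of cytosolic and mitochondrial genes and of Eif2ak3, diamonds on those of ER chaperones and Syvn1, and no gene carries both.

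As a set, the members were abundant in liver. Their levels ran from 0.993 (Hspa1a) to 624 (P4hb), a 628-fold range, with a median of 27.7 against 3.13 for all genes. Of the 42 members, 37 were above the median of all genes, 17 were above its 90th percentile, and P4hb alone was above its 99th. Together they made up 1.13% of the summed mean normalized counts. The 5 members below the median of all genes were Eif2ak3, Hsf1, Hspa4l, Ern1 and Hspa1a.

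**Figure D2:**
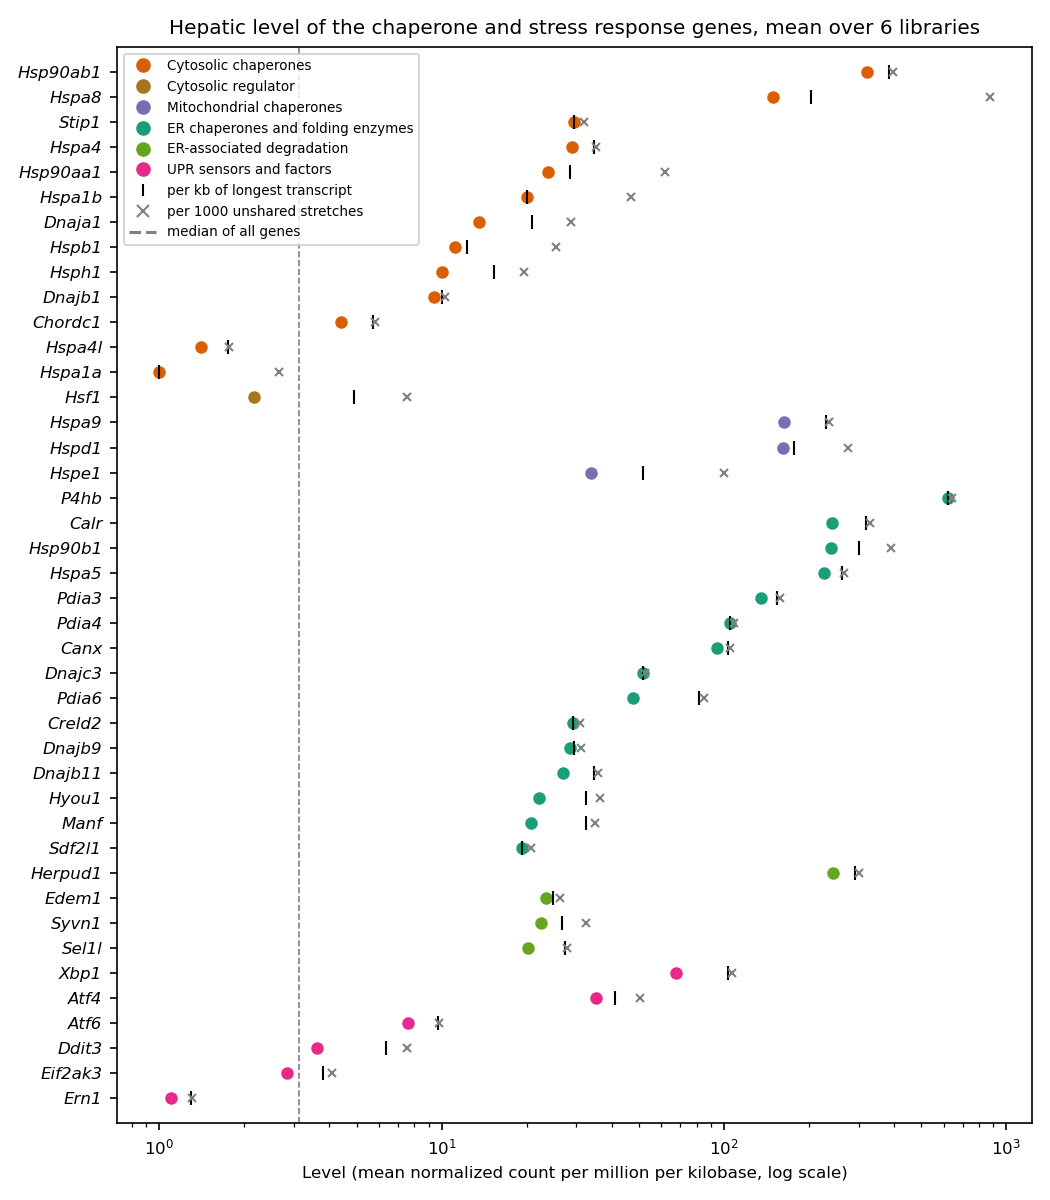
Level of each member (x axis, mean normalized count per 1000000 per kilobase, log scale; y axis, genes by group and level), pooled over the 6 libraries, so that no error bar can be drawn. Filled points use merged exons, black ticks the longest transcript, grey crosses the number of 75-base stretches that no other gene holds, and the dashed line is the median of all genes at 3.13. The cross of Hspa8 stands at 878, far to the right of its point at 149.

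The ER chaperones and folding enzymes had the largest summed level of the 3 compartments. Summed over members, their levels came to 1913, against 624 for the cytosolic chaperones and 359 for the mitochondrial ones, which are shares of 66.1%, 21.5% and 12.4%. All 15 ER genes were above the median of all genes, the lowest (Sdf2l1) had a level of 19.3, and the highest exceeded it 32.3-fold. The 3 mitochondrial genes spanned 4.82-fold. The cytosolic group spanned 324-fold, and Hsp90ab1 alone supplied 51.6% of its sum. In the ER group, P4hb alone supplied 32.6%. The shares depend on the choice of members, which number 15, 13 and 3. By median level per gene, the mitochondrial group was the highest at 162, against 51.7 for the ER and 13.6 for the cytosolic group. Only the ER list holds protein disulfide isomerases, namely P4hb, Pdia3, Pdia4 and Pdia6.

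Per kilobase of merged exons, the highest member was P4hb (chr11:120560298-120573253, minus strand, GRCm38), with a mean normalized count of 53612. It encodes protein disulfide isomerase, which forms and rearranges disulfide bonds and is also a subunit of the microsomal triglyceride transfer protein complex. Its level of 624 was 4.60 times that of Pdia3 (136), the isomerase that works on glycoproteins held by calreticulin and calnexin. Pdia4 and Pdia6, further isomerases of the family, had levels of 105 and 47.5. Of the lectin chaperones that hold such glycoproteins, the soluble Calr had a level of 242 and the membrane-bound Canx of 94.1, a ratio of 2.57.

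Hspa5 (BiP, the Hsp70 of the ER, which also keeps the stress sensors inactive) had a level of 227 and Hsp90b1 (GRP94, the Hsp90 of the ER) of 240. Their mean normalized counts were 28807 and 29025. The ER J proteins stood well below Hspa5, with Dnajc3 at 51.7, Dnajb9 at 28.5 and Dnajb11 at 27.0. Hyou1, its exchange factor, had a level of 22.2, so that Hspa5 exceeded it 10.2-fold. Sdf2l1, which forms a complex with Dnajb11, was at 19.3. Creld2 and Manf, ER stress-inducible proteins that are partly secreted, were at 29.2 and 20.6.

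In the cytosol, constitutive genes far outweighed their stress-inducible relatives. Hsp90ab1, the constitutive Hsp90, had a level of 322 and Hsp90aa1, the inducible form, of 23.7, a ratio of 13.6. Hspa8, the constitutive Hsp70, had a level of 149, which was 7.42 times that of Hspa1b (20.1). Hspa1b in turn was listed at 20.2 times the level of its near-identical neighbour Hspa1a (0.993), with mean normalized counts of 1690 and 88.5. Among other stress-inducible genes of the cytosol, the J protein Dnaja1 had a level of 13.6, Hspb1 of 11.1 and the J protein Dnajb1 of 9.39.

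The 3 Hsp110-type exchange factors of the cytosol differed widely, with levels of 28.9 for Hspa4, 10.03 for Hsph1 and 1.40 for Hspa4l. Stip1, which passes clients from Hsp70 to Hsp90, was at 29.4 and Chordc1 at 4.42. Hsf1, the transcription factor of the heat shock response, was at 2.16, a mean normalized count of 461.

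The mitochondrial chaperones were led by Hspa9, the Hsp70 that pulls proteins through the inner membrane, with a level of 163, and by Hspd1 at 162. Hspe1 was at 33.7, so that Hspd1 exceeded its partner 4.82-fold. Across compartments, Hspa5 was 1.39 times Hspa9 and Hspa9 was 1.09 times Hspa8, the latter ratio being 0.269 when length is counted in 75-base stretches that no other gene holds. Among the listed exchange factors, the highest per compartment were Hyou1 in the ER, Bag1 (52.7) in the cytosol and Grpel1 in the mitochondria. The leading Hsp70 gene exceeded them 10.2-fold, 2.82-fold and 4.47-fold. Per longest transcript, these ratios were 8.02, 3.84 and 6.33. Without length, Hspa8 over Bag1 was the largest of them, against 5.98 for the ER pair and 5.47 for the mitochondrial pair. On that scale Hspa4 stood above Bag1 in the cytosol, and Hspa8 exceeded Hspa4 by less than either of these values. Unshared stretches were not counted for Bag1 or Grpel1, so the order of the compartments is not settled. For the Hsp90 genes, Hsp90b1 stood at 0.744 times Hsp90ab1, and Hsp90ab1 at 4.48 times the mitochondrial Trap1 (71.8). The ratio of Hsp90b1 to Hsp90ab1 was 0.978 per unshared stretch and 1.001 without length, so their order is not settled either. Bag1, Grpel1 and Trap1 are not members but were listed among the other genes of these pathways.

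**Figure D3:**
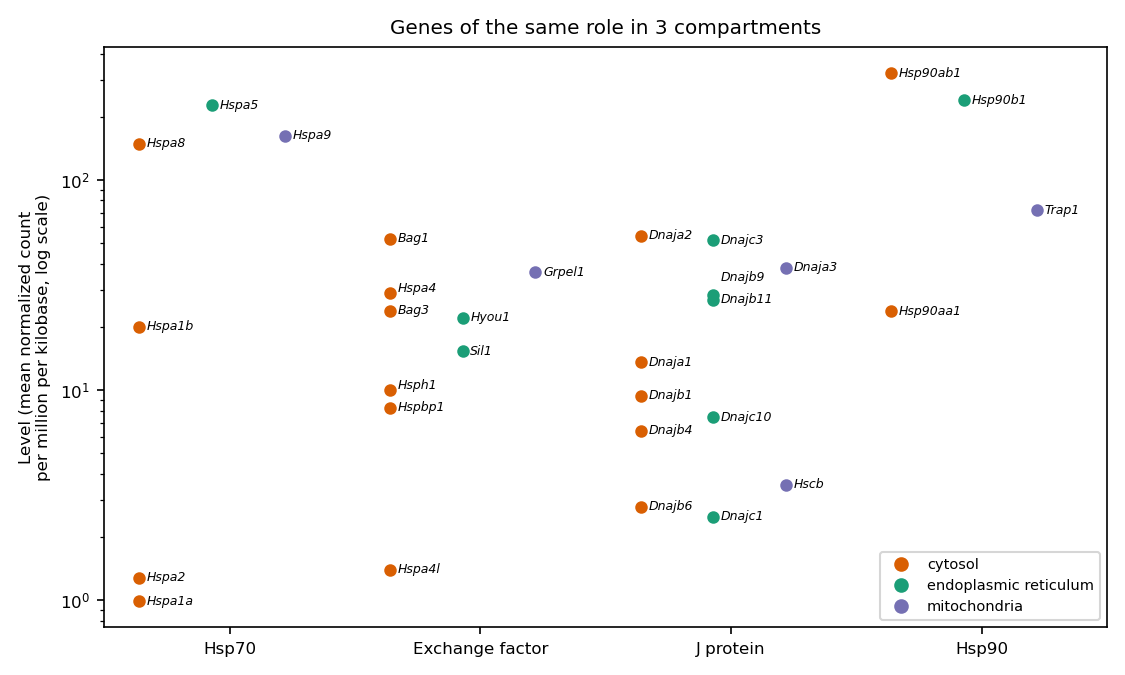
Level (y axis, mean normalized count per 1000000 per kilobase, log scale) of genes with the same role in the cytosol, the ER and the mitochondria (x axis, Hsp70, exchange factor, J protein and Hsp90), as means over the 6 libraries and for all members and further listed genes of these roles. The leading Hsp70 genes lie between 149 and 227, and the exchange factors and J proteins reach no more than 54.5 (Dnaja2) in any of the 3 compartments.

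The 4 degradation genes split into Herpud1, at a level of 243, and 3 genes within a narrow range. Herpud1 encodes a short-lived membrane protein that organizes the ubiquitin ligase complex. Per kilobase of merged exons it was the third highest of all members, close to Calr (242) and Hsp90b1 (240). Per longest transcript both stood above it, at 319 and 300 against 290. Syvn1, the ubiquitin ligase of that complex, was at 22.4, its partner Sel1l at 20.2, and Edem1, which helps to hand over misfolded glycoproteins, at 23.4. Herpud1 stood at 10.8 times the level of Syvn1 and 12.0 times that of Sel1l.

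Among the sensors and factors, Xbp1 and Atf4 stood above the sensors that act on them. Xbp1, whose mRNA is spliced by Ern1, had a level of 67.6 against 1.10 for Ern1, a ratio of 61.6. Atf4, whose translation rises when Eif2ak3 is active, had a level of 35.2 against 2.84 for Eif2ak3, a ratio of 12.4. Atf6 was at 7.59. Ddit3 (CHOP), a pro-apoptotic target of Atf4, was at 3.60, close to the median of all genes. These gene-level values do not separate spliced from unspliced Xbp1 and say nothing of protein or cleavage. Ddit3 was measured over the merged exons of 2 overlapping annotated genes of that name.

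The other genes of the same pathways, 59 on a list chosen with earlier results of these data known, were all in the table with a mean above 10, and 49 were above the median of all genes. The 17 further cytosolic genes had a median level of 13.5, led by Hspb8 (91.5), Dnaja2 (54.5) and Bag1 (52.7). The 8 further mitochondrial genes had a median of 35.6, led by Clpx (93.5), Trap1 (71.8) and Dnaja3 (38.2). The 14 further ER genes had a median of 13.2, led by Ppib (52.7), Txndc5 (42.3) and Pdia5 (29.7), all below the leading ER members. Summed levels of these further lists were 374 (cytosolic), 314 (mitochondrial) and 246 (ER), so the order of the members' sums did not hold there. The 10 further degradation genes had a median of 27.3, and among them Os9 was at 128 and Vcp at 43.2. The 10 further stress response genes had a median of 5.40, and 2 of them stood apart, Atf5 at 231 and Creb3l3, a liver-enriched ER membrane factor, at 121, with Mbtps1 next at 6.22.

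The reads behind these levels were 75 bases long, and for some members another gene holds the same 75 bases. Of the 42 members, 17 shared at least 1 such stretch of their main transcript with transcripts of another gene on either strand, and 8 shared over 20% of them. All 8 were cytosolic or mitochondrial: Hspa8 (68.6%), Hspa1a (61.7%), Hspa1b (55.8%), Hsp90aa1 (53.1%), Hspb1 (47.3%), Hspd1 (33.7%), Hspe1 (29.1%) and Dnaja1 (26.2%). In the ER group 3 of 15 shared any, and the highest share was 9.71% for Hsp90b1. Summed over transcripts, 17.8% of cytosolic, 16.7% of mitochondrial and 1.02% of ER stretches were shared.

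Many of the partners were pseudogenes. Of 55 partner genes, 27 are annotated as pseudogenes, of which 3 have a row in the deposited table. Hspa8 shared 64.3% of its stretches with the processed pseudogene Gm15459, Hsp90aa1 45.0% with Gm12346, and Hspb1 47.3% with Hsp25-ps1. Hspa1a and Hspa1b shared 52.7% and 55.8% of their stretches with each other, so the authors' counting could have split their reads and the listed 20.2-fold difference is uncertain. The protein-coding gene Gm20481 overlaps 564 exon bases of Hspa1a on the opposite strand and holds 14.6% of the stretches of Hspa1a. How reads with several placements were handled is not given in the sources used here.

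**Figure D4:**
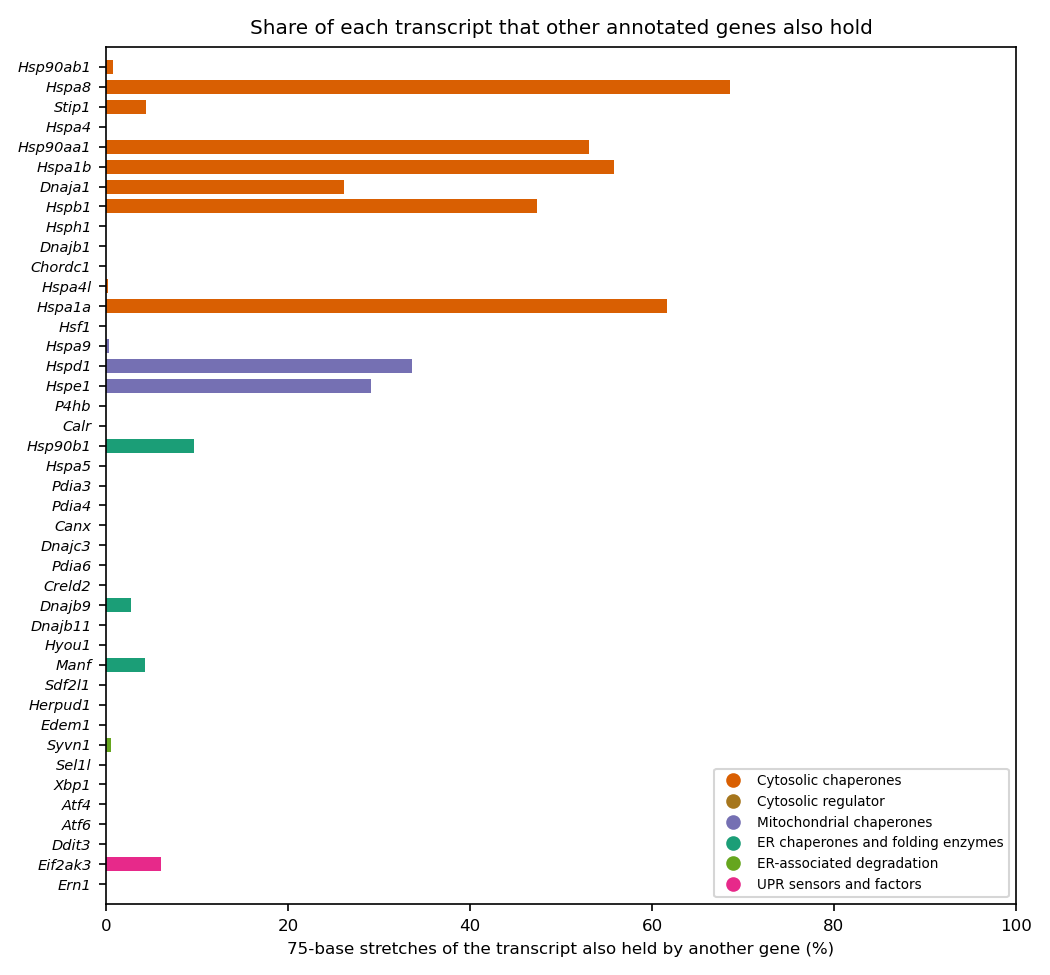
Share of the 75-base stretches of each member's main transcript that transcripts of another gene also hold (x axis, percent; y axis, genes by group and level as in the plot of levels). Long bars stand in the cytosolic and mitochondrial groups, up to 68.6% for Hspa8, and no ER bar passes 9.71%.

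If reads from shared stretches were not counted, the levels of these members would be understated. Dividing by the number of unshared stretches instead of exon length moved Hspa8 from 149 to 878, Hsp90aa1 from 23.7 to 62.0, Hspa1b from 20.1 to 46.7 and Hspe1 from 33.7 to 100.2. This length also differs from the merged exons because it covers the main transcript alone. On that scale Hspa5 was 0.303 times Hspa8 in place of 1.52 times, which turns their order, and Hspa8 also passed P4hb (640) as the highest member. The ratio of Hsp90ab1 to Hsp90aa1 was 6.41 in place of 13.6, that of Hspa8 to Hspa1b was 18.8 in place of 7.42, so that both constitutive genes stayed above these inducible relatives on either scale. The ratio of Hspd1 to Hspe1 was 2.75 in place of 4.82. The ER share of the chaperone sum was 51.9% in place of 66.1%, and remained the largest. A pair of globin genes, Hba-a1 and Hbb-bs, was chosen after their values were seen. They share 62.2% and 64.3% of their stretches with Hba-a2 and Hbb-bt and are listed at 0, while the red cell enzyme Alas2 had a level of 29.6. The part that shared sequence has in this was not tested.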

How the data were processed

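Hepatic mRNA libraries of 3 WT and 3 Pai-1+/- mice were prepared with an mRNA kit and sequenced in single-end reads of 75 bases. The submitters' processing notes name STAR, HOMER and DESeq2 and the build mm10, and the study's methods describe alignment with STAR and a DESeq2 comparison. Versions, annotation and strand setting are not given in the sources used here. The signal used here is the authors' mean of normalized counts over all 6 libraries, as deposited, which is a mean of counts divided by size factors. The same deposited table holds log2 fold changes, standard errors, test statistics, p-values and adjusted p-values of the authors' own comparison, which were not used. A second deposited table holds counts by the authors in 6 columns headed by animal numbers. No label gives those numbers, so the 6 columns were left out and the edgeR test intended for them was not run.

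Levels were computed with GENCODE M21 exons (GRCm38, the sequence of mm10), and 646 rows were matched through RefSeq synonyms. Shared stretches and motifs were counted with Python 3.11.15, NumPy 2.4.6 and pandas 2.3.3, after tests on simulated sequences. Shared stretches were sought in all GENCODE transcripts on either strand. Motifs were searched on both strands of RefSeq promoter windows. All 42 members are named, and the 3 highest genes of each further list, apart from an item that is not reported here. The members, lists and motifs were chosen with earlier results of these data known. Stretches are printed with up to 15 bases on either side of a match, and with at most 30 bases in all inside an annotated exon.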

Additional observations from a re-analysis of the deposited data

How the results depend on the processing

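No paired analysis was possible because the count columns carry no sample label or replicate number. For the same reason the other fits planned for the genotypes (other normalizations, DESeq2, no filter, a fold threshold, leaving out each library) were not run. Without a spread between mice, any change in the third digit is given here. The median level of the members, 27.7, became 30.9 per kilobase of the longest transcript, 101 per 1000000 without length, 33.3 without the 10 highest genes in the denominator, 25.3 over members free of exon overlap and 35.5 per unshared stretch, the last chosen after seeing the data. In the order longest transcript, no length, without the highest member of each compartment, members free of exon overlap and unshared stretches (the last 2 chosen after seeing the data), the cytosolic share of 21.5% became 22.5%, 22.9%, 16.9%, 23.5% and 34.5%, the ER share of 66.1% became 64.0%, 65.1%, 72.1%, 68.2% and 51.9%, and the mitochondrial share of 12.4% became 13.5%, 12.0%, 11.0%, 8.30% and 13.7%. The ER share was the highest and the mitochondrial share the lowest in each. These are sums over lists of unequal size, and by median level per gene the mitochondrial group was the highest. Among members free of exon overlap, the mitochondrial share is that of Hspa9 alone. Members above the median of all genes numbered 37, or 38 under either other length. Within 150 bases before the start, the heat shock element was in 50% in place of 60% of cytosolic members and in 8.91% in place of 17.0% of all genes, and the ER stress element was in 46.2% in place of 53.8% of ER chaperones and in 0.0962% in place of 0.137% of all genes. On the forward strand alone the ER stress element was in 38.5% and 0.0777%. Both settings search no more than the main one. The 0 of the heat shock element in ER chaperones and of the ER stress element in cytosolic members therefore could not change. The heat shock letters read the same on either strand, so for them the forward strand alone repeats the main search. Per gene, the longest transcript moved levels by 1 to 2.27 times (8 genes by over 1.5 times, Hsf1 most). Unshared stretches moved them by 1.01 to 5.90 times (16 genes by over 1.5 times, Hspa8 most). The latter setting also takes the main transcript alone. Hsf1, which shares no stretch, thereby moved from 2.16 to 7.55.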
